A study of Arabidopsis thaliana with 8 samples.

Results

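The genes described here are 10 transcription factors of the WRKY family tied to the ageing of leaves in Arabidopsis. All but WRKY30 are known from genetic work to promote it or hold it back. The 10 genes are WRKY6 (AT1G62300), WRKY22 (AT4G01250), WRKY30 (AT5G24110), WRKY45 (AT3G01970), WRKY53 (AT4G23810), WRKY54 (AT2G40750), WRKY55 (AT2G40740), WRKY57 (AT1G69310), WRKY70 (AT3G56400) and WRKY75 (AT5G13080). They were chosen by locus, for their known roles, with earlier results of these data known, and each is represented by its brightest probe. All 10 loci are on the array, with 15 probes. The test required a probe well above background on each array of some group, and 9 of the 10 met this, among 20609 genes in all. WRKY55 did not, and its signals are given without a test in the main fit.

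WRKY proteins carry a conserved zinc-binding domain that recognises the W-box, a short DNA element in the promoters of defence and senescence genes. Leaf senescence is the ordered dismantling of an ageing leaf, in which chlorophyll is degraded and nitrogen is moved to growing organs. The family takes part in it as a network whose members bind each other's promoters and respond to salicylate, jasmonate, hydrogen peroxide and MAP kinases. WRKY6, WRKY22, WRKY45, WRKY53, WRKY55 and WRKY75 are known as promoters of senescence and WRKY54, WRKY57 and WRKY70 as repressors, while WRKY30 responds early to reactive oxygen and binds WRKY53, WRKY54 and WRKY70.

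Total RNA of wild-type Arabidopsis thaliana, ecotype Columbia-0, was hybridised to 8 one-colour arrays. The 4 groups, of 2 biological replicates each, were the entire plant 2 days after germination (2-day seedlings, roots included), and, from plants 21 days after germination, everything above ground (21-day shoots), the newest 3 leaves (young leaves) and 3 older leaves without the cotyledons (mature leaves). All plants came from plates kept at 22 °C in long days, 16 h light and 8 h dark, after 3 days at 4 °C, and no treatment was given. The design text names a pair of comparisons, 21 days against 2 days and mature against young leaves. The sources used here do not say how many plants were pooled for a sample, and the p-values measure only the spread between these samples.

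The signal of a probe is given as a level, log2 of the processed signal minus the 75th percentile of its array, so that a level of 0 is the signal at that percentile. Levels of different genes come from different probes and are not compared with each other. Between 66.7% and 74.6% of probes were well above background on an array, fewest in mature leaves. The lowest level among probes well above background was -7.18 to -7.09 in 2-day seedlings, -7.05 to -7.00 in 21-day shoots, -6.99 to -6.89 in young leaves and -6.45 to -6.37 in mature leaves. A dim transcript could therefore be read to a lower level in 2-day seedlings than in mature leaves. Replicate arrays correlated at r = 0.994 to 0.996 across genes, which are not independent replicates. The arrays of 2-day seedlings and 21-day shoots shared a slide and scan, and those of the leaves shared another, so that each of the named comparisons lies within 1 slide. In bulk RNA, fewer cells of a type and less RNA per cell cannot be told apart.

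The tissue labels were checked against marker genes. The summed linear signal of 9 root markers, in multiples of the array's 75th percentile, was 213 to 232 in 2-day seedlings, 7.67 to 9.42 in 21-day shoots, 0.327 to 0.421 in young leaves and 0.449 to 0.493 in mature leaves. Storage protein and oleosin genes of the seed, 6 in all, summed to 0.903 to 1.52 in 2-day seedlings and to at most 0.060 on any other array. The 6 markers of photosynthetic leaf tissue were above background on every array, from 993 to 1189 in 2-day seedlings to 2435 to 2563 in mature leaves. Of 7 floral genes, 6 were tested and summed to 1.38 to 1.78 in 21-day shoots against 0.041 to 0.042 in 2-day seedlings. In young leaves the 6 summed to 0.923 to 0.974 and in mature leaves to 0.418 to 0.446. In either leaf class 3 of the 6 were above background on both arrays, so floral transcripts were not confined to 21-day shoots.

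Between 2-day seedlings and 21-day shoots, both salicylate-linked repressors rose, while 4 of the other members were called lower. WRKY53 and WRKY30 were among these 4, with calls that depend on the setting. The comparison sets whole plants with roots against shoots without them, so that age and organ cannot be told apart, for rises and falls alike. WRKY70 was 18.4-fold higher in 21-day shoots, and WRKY54 was 11.7-fold higher by its fitted means, with 1 of 2 arrays of 2-day seedlings at background. WRKY6 and WRKY75 were lower in every setting in which they were tested. The count of lower calls was 2 with quantile normalization, namely these genes. It was also 2 with the value table, namely WRKY6 and WRKY53, where WRKY75 and WRKY30 were not tested. WRKY22, WRKY45 and WRKY57 did not pass the test. In all, 6 of the 9 tested members (66.7%) were called at an adjusted p under 0.05 in limma, against a background of 75.1% of all tested genes. By direction, 2 members were higher, where 34.8% of all genes were, and 4 lower, where 40.3% were. The members' share is near that of the genes at large, and the median change of the tested members, -0.13 on the log2 scale, lies close to the median of all genes, -0.07. WRKY30 passed the filter only through 2-day seedlings, where it was high, so it had to be lower elsewhere.

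**Figure D1:**
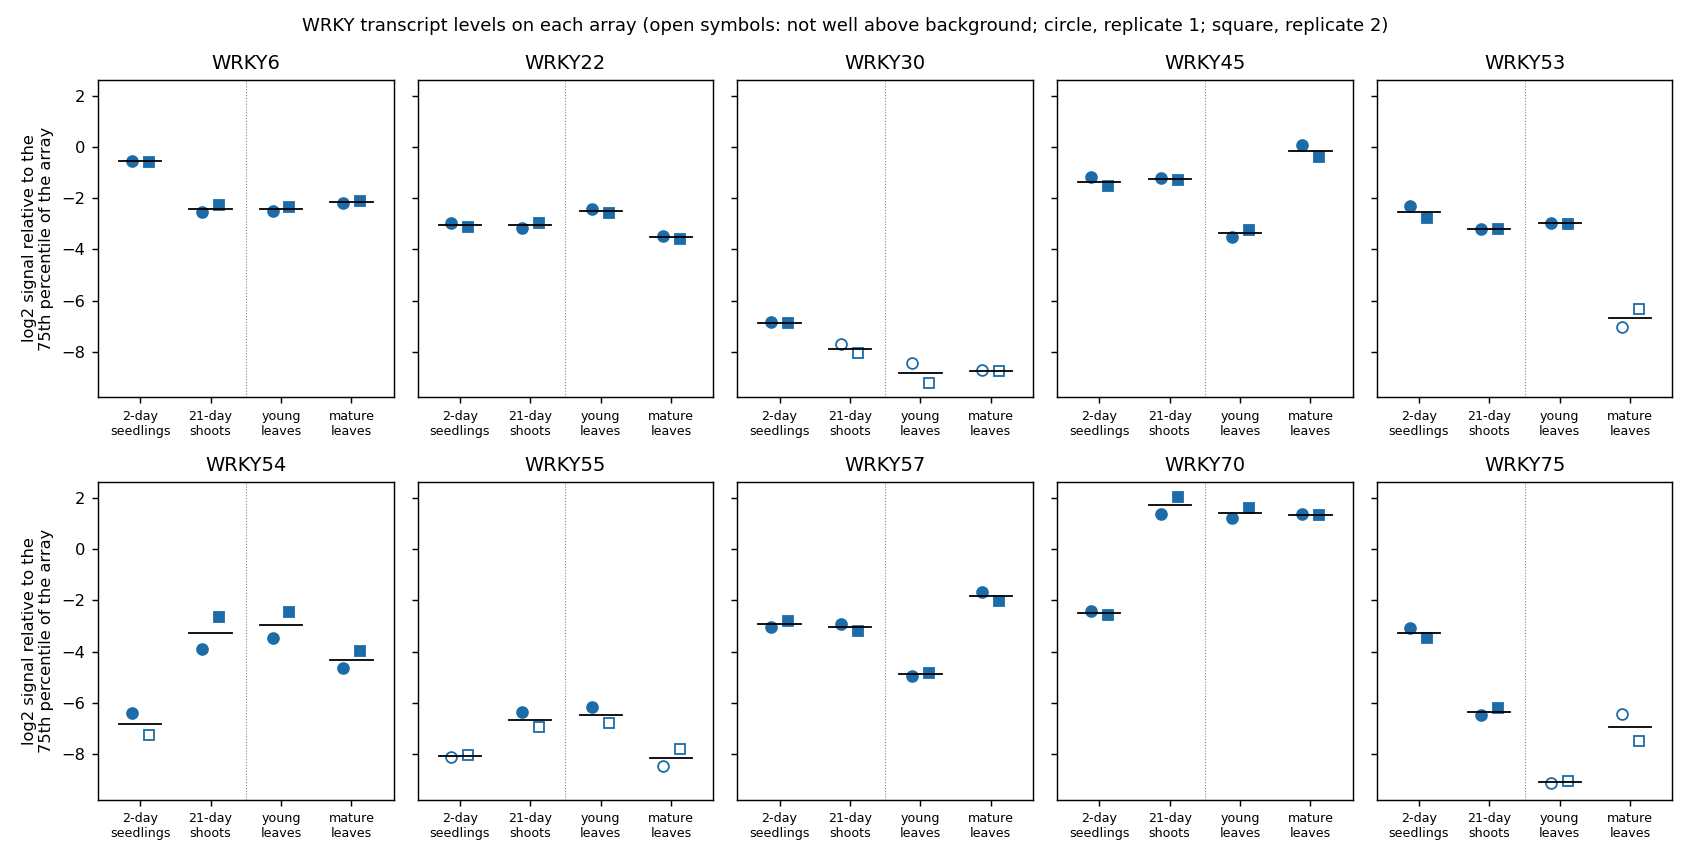
The plot shows the level of each WRKY gene on every array, as log2 signal relative to the 75th percentile of the array, with circles for replicate 1, squares for replicate 2 and a black line at the mean of the 2 arrays of a group. Open symbols are not well above background, and the dotted line divides the slides. WRKY70 stands at -2.41 and -2.55 in 2-day seedlings and between 1.23 and 2.05 on the 6 other arrays, while WRKY45 and WRKY57 are lowest in young leaves and highest in mature leaves.

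WRKY70 and WRKY54 are close relatives of WRKY group III that act together as repressors of senescence and as regulators of salicylate responses. The level of WRKY70 was -2.41 and -2.55 in 2-day seedlings and 1.38 and 2.05 in 21-day shoots. In linear processed signal these are 199 and 164 against 2241 and 3347. All arrays of the later stage lay far above those of the earlier, and the difference of 4.20 ± 0.23 (SE, n = 2 per group, log2 scale) had an adjusted p of 2.21e-05 in limma. WRKY54 had levels of -6.39 and -7.25 in 2-day seedlings, where only 1 of the 2 arrays was well above background, and of -3.90 and -2.64 in 21-day shoots. Its increase of 3.55 ± 0.57 (SE, n = 2 per group, log2 scale) had an adjusted p of 0.00182 in limma. The size of this increase is loosely fixed: it was 2.92 without replicate 2 and 4.18 without replicate 1 of 21-day shoots, and 1.33 with the normexp background correction, and passed the test in each. Replicates of WRKY54 differed by 1.57-fold to 2.40-fold in every group, with replicate 2 the higher of each pair after day 2, and its replicate SD of 0.69 was above that of 98.1% of genes.

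WRKY55 is the chromosomal neighbour of WRKY54, with 0 genes between them in the gene table, and it is known to raise salicylate and reactive oxygen in senescing leaves. Its processed signal was 3.85 and 3.70 in 2-day seedlings, 10.4 and 6.51 in 21-day shoots, 12.4 and 7.67 in young leaves and 1.37 and 2.33 in mature leaves. It was well above background on 1 of 2 arrays of 21-day shoots and on 1 of 2 arrays of young leaves, and on none in the other groups. On both of those groups replicate 1 was the higher, whereas for WRKY54 replicate 2 was the higher.

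WRKY75 promotes senescence in a loop with salicylate and hydrogen peroxide, and is also known from roots as a regulator of phosphate starvation responses and root hairs. It was at -3.09 and -3.45 in 2-day seedlings and at -6.47 and -6.21 in 21-day shoots, where both arrays were only 0.57 and 0.79 above the lowest level read as well above background. The fall of 3.07 ± 0.34 (SE, n = 2 per group, log2 scale) had an adjusted p of 0.000368 in limma, and the other probe of the locus fell by 3.02. That other probe was not well above background in 21-day shoots. All 9 root markers fell in the same comparison, with a median of -7.52 on the log2 scale, or -7.08 with undetected genes at their bound. All 6 seed markers fell too. Of these markers, 6 of the 9 for root and 3 of the 6 for seed were above background on no array of 21-day shoots. A marker that passed the filter only through 2-day seedlings had to be lower elsewhere. The part of root or seed tissue in the change of WRKY75 was not tested.

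WRKY6, a regulator of senescence, of defence and of the phosphate exporter gene PHO1, was lower in 21-day shoots on both arrays. Its levels were -0.56 and -0.58 in 2-day seedlings against -2.55 and -2.28, a 3.58-fold difference (-1.84 ± 0.11, log2 scale, SE, n = 2 per group, adjusted p = 2.77e-05 in limma). The other probe of the locus gave -2.22 ± 0.23 (SE, log2 scale). The root and seed markers moved in the same direction, and their part in this was not tested either.

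WRKY53, a central early promoter of senescence, fell by 0.68 ± 0.25 (SE, n = 2 per group, log2 scale, adjusted p = 0.0495 in limma). Its levels of -2.30 and -2.76 in 2-day seedlings lay above those of -3.19 and -3.23 in 21-day shoots. This call was lost under 10 of 18 alternative settings, among them leaving out replicate 1 of 2-day seedlings, which gave -0.45 with an adjusted p of 0.232 in limma. The other probe of WRKY53, a dimmer probe, gave 0.02 ± 0.39 (SE, log2 scale, adjusted p = 0.966 in limma).

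WRKY30 was well above background only in 2-day seedlings, at -6.85 and -6.87, close to the lowest readable level. With -7.70 and -8.04 in 21-day shoots, not well above background, it was at least 1.12-fold lower (adjusted p = 0.0122 in limma, fitted difference -1.01 ± 0.26, SE, n = 2 per group). A bound on a fold sets the brighter group's mean against the lowest level read as well above background, or the dim probe's own level where that is higher. This call was lost in 4 of 17 alternative settings and turned its direction in 1 more. The other probe of WRKY30 was not well above background on any array.

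The 3 members that missed the threshold had small differences on the log2 scale. WRKY22, which acts in dark-induced senescence, differed by -0.01 ± 0.11 (SE, n = 2 per group, adjusted p = 0.914 in limma). WRKY45, a promoter of gibberellin-dependent senescence, differed by 0.10 ± 0.20 (adjusted p = 0.656 in limma). WRKY57, a repressor of jasmonate-induced senescence, differed by -0.13 ± 0.15 (adjusted p = 0.470 in limma). The direction of each of these differences turned under some scaling or background correction.

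**Figure D2:**
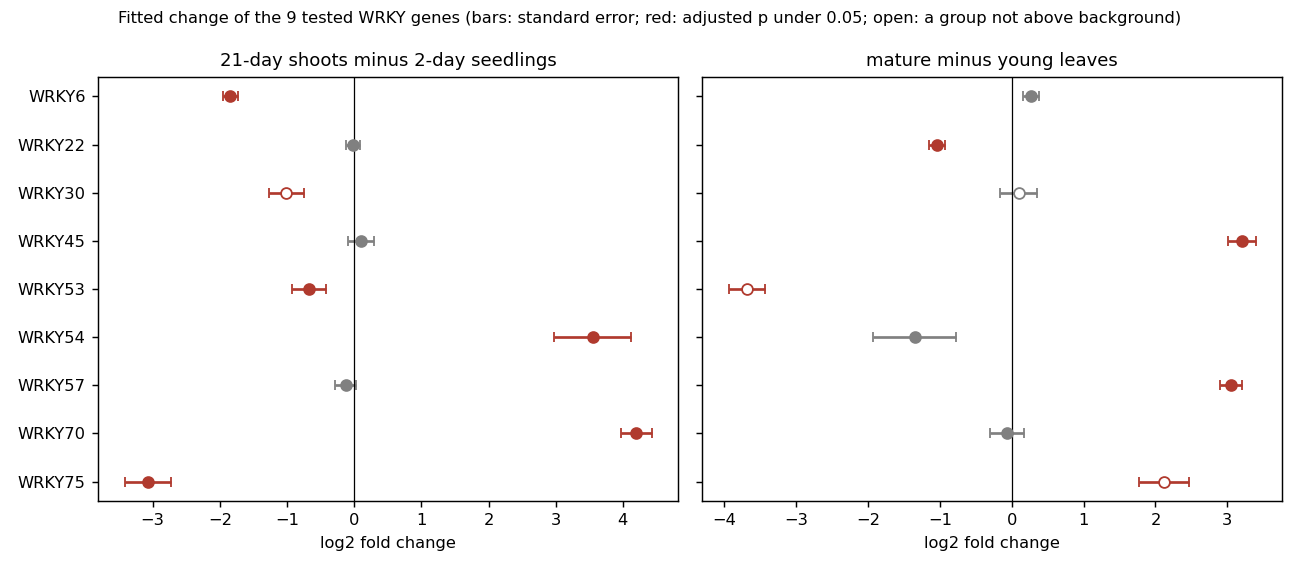
The fitted log2 fold change of the 9 tested WRKY genes is shown with its standard error for 21-day shoots against 2-day seedlings (left) and mature against young leaves (right). Red marks an adjusted p under 0.05 and an open circle a comparison in which a group had no array well above background, so that the point is a fitted value and not a measured fold. On the left WRKY70 and WRKY54 lie at 4.20 and 3.55, and on the right WRKY45 and WRKY57 lie at 3.20 and 3.05 and WRKY53 at -3.68.

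Between leaf classes of the 21-day plants, the detected members that passed the test were WRKY45, WRKY57, WRKY53 and WRKY22. WRKY45 was 9.20-fold and WRKY57 8.30-fold higher in mature leaves, WRKY53 was at least 10.3-fold lower, and WRKY22 was 2.05-fold lower. WRKY70 and WRKY54, the genes with the steepest rise between day 2 and day 21, did not pass the test between leaf classes. In all, 5 of the 9 tested members (55.6%) were called, against a background of 71.3% of all tested genes. By direction, 3 members were called higher, where 35.8% of all genes were, and 2 lower, where 35.5% were. One of the 3 higher calls, WRKY75, concerns a probe not well above background on any leaf array, which leaves 2 higher and 2 lower among members detected in at least 1 leaf class. The median change of the tested members was 0.10 on the log2 scale and that of all genes 0.04.

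WRKY45 promotes senescence together with gibberellin signalling, in which the DELLA protein RGL1 binds and inhibits it. Its levels were -3.51 and -3.24 in young leaves and 0.06 and -0.41 in mature leaves, which in processed signal is 76.5 and 89.5 against 509 and 393. The increase was 3.20 ± 0.20 (SE, n = 2 per group, log2 scale, adjusted p = 3.78e-05 in limma). RGL1 itself fell by 2.08 ± 0.13 (SE, log2 scale, adjusted p = 3.71e-05 in limma) between the same leaves.

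WRKY57, a member of the same WRKY group IIc, had levels of -4.94 and -4.84 in young leaves and of -1.67 and -2.00 in mature leaves. In processed signal these are 28.5 and 29.5 against 154 and 130, with no overlap between the leaf classes. The increase of 3.05 ± 0.15 (SE, n = 2 per group, log2 scale) had an adjusted p of 1.75e-05 in limma, and the other probe of the locus rose by 2.76 ± 0.15. JAZ4, a jasmonate repressor protein that binds WRKY57, was at least 1.73-fold lower in mature leaves, where neither array was well above background for it.

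The promoter WRKY53 and the repressor WRKY57 thus moved in opposite directions in mature leaves. WRKY53 had levels of -2.97 and -2.99 in young leaves and of -7.02 and -6.31 in mature leaves, not well above background there. Its processed signal was 112 and 106 in young leaves and 3.77 and 6.55 in mature leaves. The transcript was at least 10.3-fold lower in mature leaves (adjusted p = 5.54e-05 in limma, fitted difference -3.68 ± 0.25, SE, n = 2 per group). The other probe was also not well above background in mature leaves, with a fitted difference of -1.14 ± 0.39 (SE, log2 scale, adjusted p = 0.0406 in limma) from a young-leaf level of -6.16, near the lowest readable level.

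WRKY22 has been placed downstream of the MEKK1, MKK4, MKK5, MPK3 and MPK6 kinases in flagellin signalling. It was at -2.42 and -2.58 in young leaves and at -3.46 and -3.61 in mature leaves. The fall of 1.04 ± 0.11 (SE, n = 2 per group, log2 scale) had an adjusted p of 0.000279 in limma, and its size ranged from 0.42 to 1.90 over the alternative settings. Genes that answer quickly to touch and wounding were read beside WRKY22 and WRKY53, since handling of leaves changes such transcripts. Of 10 such genes 0 were called higher and 4 lower in mature leaves, where 35.8% and 35.5% of all tested genes were. The median of the 10 was -0.04 on the log2 scale, against 0.04 for all genes. The largest falls were those of TCH2, a calmodulin-like touch gene (-1.97 ± 0.17, SE, log2 scale), and ZAT12, a stress zinc-finger factor (-1.68 ± 0.37). The 10 genes summed to 9.0 to 9.27 in young and 6.63 to 7.19 in mature leaves, in multiples of the array's 75th percentile. Markers of dividing cells also differed, with 6 of 6 lower and sums of 8.12 to 8.16 in young and 0.395 to 0.450 in mature leaves. The part of either in the lower levels of WRKY22 and WRKY53 was not tested.

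WRKY6 was at -2.49 and -2.35 in young and at -2.19 and -2.11 in mature leaves, a difference of 0.27 ± 0.11 (SE, n = 2 per group, log2 scale, adjusted p = 0.0640 in limma). It passed the threshold as higher under 8 of 19 alternative settings, and its other probe gave 0.87 ± 0.23 with an adjusted p of 0.0157 in limma. With scaling on the spike-in probes it passed in the opposite direction, at -0.59 with an adjusted p of 0.00461 in limma. WRKY70 was at 1.23 and 1.60 in young and at 1.36 and 1.34 in mature leaves, and the ranges overlapped (-0.06 ± 0.23, SE, log2 scale, adjusted p = 0.820 in limma). WRKY54 was at -3.48 and -2.44 in young and at -4.64 and -3.99 in mature leaves. The arrays of the leaf classes did not overlap, but the difference of -1.35 ± 0.57 (SE, n = 2 per group, log2 scale) missed the threshold with an adjusted p of 0.0762 in limma, and replicates differed by 2.06-fold in young and 1.57-fold in mature leaves. With spike-in scaling WRKY70 and WRKY54 both passed as lower, at -0.92 and -2.21 (adjusted p = 0.00632 and 0.00754 in limma). The median of all genes was -0.82 under that scaling.

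WRKY75 and WRKY30 were not well above background in either leaf class, so that no fold is given. WRKY75 had processed signals of 1.59 and 1.61 in young and 5.74 and 2.91 in mature leaves, and the fitted difference of 2.12 ± 0.34 (SE, log2 scale, adjusted p = 0.00199 in limma) is a difference between signals at background. WRKY30 had 2.53 and 1.42 in young and 1.18 and 1.20 in mature leaves (adjusted p = 0.751 in limma).

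Read over all 4 groups, the members fell into several orders of level. The comparisons of the leaves with 2-day seedlings or 21-day shoots cross the slides, so that there the group cannot be told apart from the slide and scan. Among all tested genes, 72.8% were called between young leaves and 2-day seedlings, 84% between mature leaves and 2-day seedlings, 37.6% between young leaves and 21-day shoots and 60.3% between mature leaves and 21-day shoots. WRKY70 was highest in 21-day shoots, followed by young and mature leaves, and these 3 did not differ from their neighbours beyond the spread (adjusted p = 0.347 and 0.820 in limma). The 2-day plants followed, lower than mature leaves by 3.83 ± 0.23 (SE, log2 scale, adjusted p = 1.56e-05 in limma). WRKY54 ran from young leaves over 21-day shoots to mature leaves with no difference between neighbours passing the test (adjusted p = 0.709 and 0.161 in limma), and 2-day seedlings were lower again by 2.50 ± 0.57 (adjusted p = 0.00669 in limma).

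WRKY45 and WRKY57 shared the order of their extremes. Both were highest in mature leaves and lowest in young leaves, with 2-day seedlings and 21-day shoots between them and not apart from each other in the test. For WRKY45, mature leaves exceeded 21-day shoots by 1.09 ± 0.20 (SE, log2 scale, adjusted p = 0.00474 in limma), and 2-day seedlings exceeded young leaves by 2.01 ± 0.20 (adjusted p = 0.000228 in limma). For WRKY57, mature leaves exceeded 2-day seedlings by 1.09 ± 0.15 (adjusted p = 0.000703 in limma), and 21-day shoots exceeded young leaves by 1.84 ± 0.15 (adjusted p = 0.000622 in limma).

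WRKY53 and WRKY22 had mature leaves as their lowest group. For WRKY53 2-day seedlings, young leaves and 21-day shoots followed each other without a difference between neighbours that passed (adjusted p = 0.153 and 0.520 in limma). Mature leaves were at least 8.78-fold below 21-day shoots (adjusted p = 0.000138 in limma). For WRKY22 young leaves led, 0.56 ± 0.11 above 2-day seedlings (SE, log2 scale, adjusted p = 0.00399 in limma), and mature leaves lay 0.47 ± 0.11 below 21-day shoots (adjusted p = 0.0107 in limma). WRKY6, WRKY30 and WRKY75 had 2-day seedlings as their highest group. The lead of WRKY6 over mature leaves, the next group, was 1.58 ± 0.11 (SE, log2 scale, adjusted p = 2.67e-05 in limma), and its 3 later groups did not differ between neighbours (adjusted p = 0.0794 and 0.961 in limma). WRKY75 was at least 12.7-fold lower in young leaves and at least 8.81-fold lower in mature leaves than in 2-day seedlings (adjusted p = 2.78e-05 and 0.000103 in limma).

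The genes whose level followed each member most closely were found by the root mean square (RMS) difference of log2 levels, each centred on its own mean, over the 8 arrays and 20608 other genes. The nearest to WRKY70 was SIB1 (AT3G56710), a plastid sigma-factor-binding protein known to bind WRKY proteins, at an RMS difference of 0.28. SIB1 had levels of -4.95 and -5.03 in 2-day seedlings, of -1.19 and -0.26 in 21-day shoots, of -1.37 and -0.86 in young leaves and of -0.76 and -0.37 in mature leaves. It thus rose by 4.26 ± 0.34 (SE, log2 scale, adjusted p = 8.5e-05 in limma) by day 21 and differed by 0.55 ± 0.34 (adjusted p = 0.186 in limma) between leaf classes. Next for WRKY70 came AT5G52930 at 0.30. WRKY70 itself ranked 30 among all genes for WRKY54, and WRKY54 ranked 155 for WRKY70, at 0.63, ranks looked up after the values were seen. For WRKY54, AT2G25735 and AT5G40180 led at 0.36 and 0.41.

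WRKY45 and WRKY57 were near each other as well. WRKY57 ranked 4 among all genes for WRKY45 and WRKY45 ranked 9 for WRKY57, at an RMS difference of 0.19 over the 8 arrays, a pair singled out after its values were seen. LSH6 (AT1G07090) at 0.14 and AT4G37520 at 0.17 led for WRKY45, and NTMC2T6.2 (AT3G14590) at 0.11 and AT1G67920 at 0.13 led for WRKY57. For WRKY53 the leaders were AT2G33793 at 0.15 and AT1G09470 at 0.16, and for WRKY6 they were AT2G40110 and AT4G01610, at 0.089 and 0.092. For WRKY22 they were emb1703 (AT3G61780) at 0.077 and AT5G51910 at 0.086, for WRKY75 AT4G15610 at 0.29 and AT4G13860 at 0.31, and for WRKY30, mostly signal at background, ZFP6 at 0.17 and AT4G32780 at 0.19. The arrays of these comparisons share slides and tissue, and a small difference is easier to reach for genes that vary little.

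Set among the rest of the family, the members' changes lay within the range of the other genes. The gene table names 57 other WRKY loci, of which 44 were tested. From day 2 to day 21, 17 of these were higher, 20 lower and 7 uncalled, with a median of -0.27 on the log2 scale. In mature against young leaves, 20 were higher, 9 lower and 15 uncalled, with a median of 0.38. The shares called were 84.1% and 65.9%, against 75.1% and 71.3% of all tested genes. WRKY12 was at least 19.3-fold and WRKY8 at least 7.97-fold higher at 21 days, and WRKY9 and WRKY36 fell by 4.90 ± 0.19 and 4.50 ± 0.45 (SE, log2 scale), the latter detected on 1 of 2 arrays of 21-day shoots. Between leaf classes WRKY26 rose by 5.99 ± 0.18 and WRKY65 by 2.56 ± 0.19, WRKY49 was at least 11.7-fold lower, and WRKY8 fell by 3.12 ± 0.27.

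The subgroups, defined by protein sequence, did not move alike, though each holds few tested genes. Of all tested genes, 34.8% were higher and 40.3% lower at 21 days, and 35.8% were higher and 35.5% lower in mature leaves. Group I, the class with a pair of WRKY domains and with no member among the 10 genes, had 8 of 8 tested genes higher at 21 days and 6 of 8 higher in mature leaves, among them the defence factor WRKY33 (1.60 ± 0.17 and 0.67 ± 0.17, SE, log2 scale). In group IIe, to which WRKY22 belongs, 6 of the 6 other genes fell by day 21, by a median of 1.90, and 5 of 6 were called higher in mature leaves, with a median of 1.38. Of these 5, 2 were not well above background in either leaf class. WRKY22 had -0.01 and -1.04 in the same comparisons. Group IIb, which holds WRKY6, had 5 of 6 other tested genes lower and 1 higher at 21 days, with a median of -3.37, or -2.31 with undetected genes at their bound. In mature leaves 2 of these 6 were higher and 1 lower. Among the 11 other tested genes of group IIc, which holds WRKY45, WRKY57 and WRKY75, 5 were higher and 4 lower at 21 days, and 3 higher and 4 lower in mature leaves. In group III, which holds WRKY30, WRKY53, WRKY54, WRKY55 and WRKY70, only 3 of the 7 other genes were tested, with 0 higher and 1 lower at 21 days and 0 higher and 2 lower in mature leaves. WRKY46, a salicylate-responsive relative of WRKY54 and WRKY70, was among the latter (-0.66 ± 0.23, SE, log2 scale, adjusted p = 0.0443 in limma) and had 0.27 ± 0.23 at 21 days (adjusted p = 0.333 in limma). The median of the 3 tested group III genes in mature leaves was -0.66, or 0 with undetected genes at their bound. The group IIa factor WRKY40, a repressor of defence genes, rose by 2.58 ± 0.31 at 21 days and fell by 0.99 ± 0.31 in mature leaves.

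**Figure D3:**
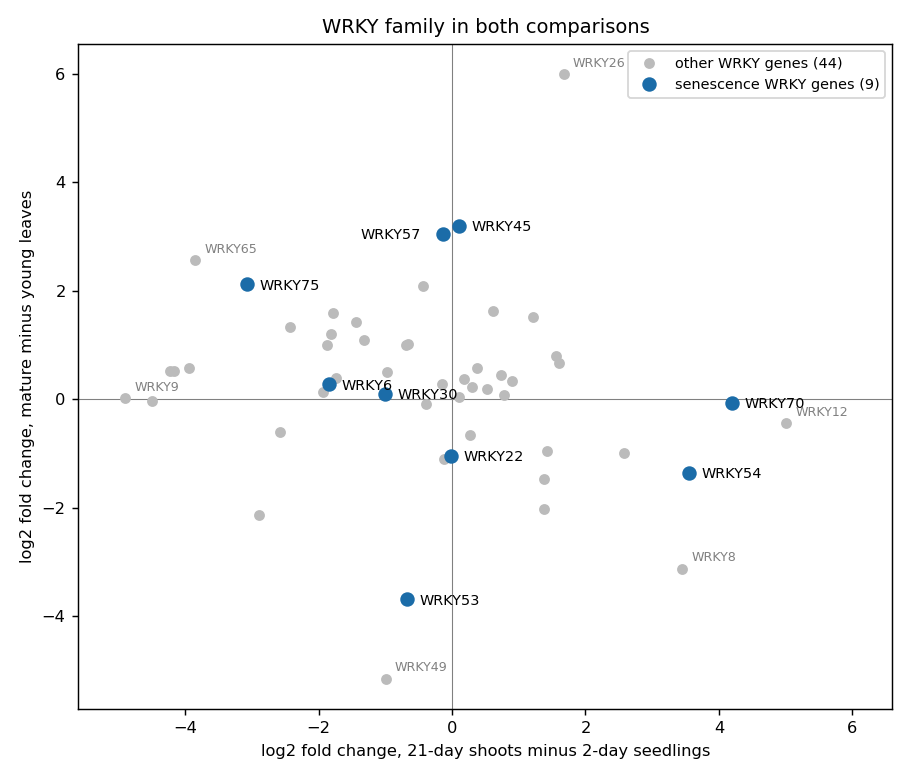
Each point is a tested WRKY gene, with its fitted log2 fold change in 21-day shoots against 2-day seedlings on the horizontal axis and in mature against young leaves on the vertical axis, the 9 senescence genes in blue and 44 others in grey. WRKY70 and WRKY54 lie far to the right, WRKY45 and WRKY57 lie together near 0 horizontally and above 3 vertically, and WRKY26 lies highest. Fitted values that involve groups at background, such as WRKY75 on the vertical axis, are drawn as they were fitted.

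Genes known to act on these factors were taken as a list of 18 regulators and partners, all tested. At 21 days 8 were higher, 5 lower and 5 uncalled (median 0.06, log2 scale), and in mature leaves 5 were higher, 7 lower and 6 uncalled (median -0.07). The shares called were 72.2% and 66.7%, against 75.1% and 71.3% of all tested genes. Besides SIB1, the largest rise at 21 days was that of ESP, which is known to bind WRKY53 and curb its DNA binding, by 4.07 ± 0.19 (SE, log2 scale, adjusted p = 1.19e-05 in limma). ESP was lower in mature leaves by -1.61 ± 0.19, and so moved in the same direction as WRKY53 there. JAZ4 and RGL1 fell by 2.24 ± 0.17 and 0.97 ± 0.13 at 21 days. In mature leaves MPK3, a kinase that phosphorylates several WRKY proteins, rose by 1.33 ± 0.14 (adjusted p = 0.000347 in limma), after 1.85 ± 0.14 at 21 days. UPL5, the ubiquitin ligase that degrades WRKY53 protein, rose by 0.82 ± 0.09 in mature leaves.

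Of 13 genes reported as direct targets of the members, 10 were tested. At 21 days 2 rose, 3 fell and 5 were uncalled, with a median of -0.03 on the log2 scale. In mature leaves 7 rose, 1 fell and 2 were uncalled, with a median of 0.77. The shares called were 50% and 80%, against 75.1% and 71.3% of all tested genes. SAG113, SEN4, ICS1, PBS3 and SAG101 of this list also stand in the lists of senescence or salicylate genes. In mature leaves SEN4, a xyloglucan-modifying enzyme gene, rose by 3.16 ± 0.18 and CAT2, the main leaf catalase, by 2.36 ± 0.25 (SE, log2 scale, adjusted p = 2.6e-05 and 0.000335 in limma). CAT2 had 0.14 ± 0.25 at 21 days (adjusted p = 0.646 in limma) and SEN4 fell by 2.06 ± 0.18. PBS3, an enzyme of salicylate synthesis, showed the opposite course, higher by 5.74 ± 0.55 at 21 days, with 1 of 2 arrays of 2-day seedlings above background, and lower in mature leaves by -2.42 ± 0.55. SAG113, a protein phosphatase gene of senescing leaves, rose by 1.09 ± 0.30 at 21 days. FRK1, a receptor kinase gene controlled by WRKY6, and SAG12, a protease gene of late senescence, stayed at background on all 8 arrays, and SAG13 exceeded it on 1 array of 21-day shoots and 1 of mature leaves.

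Of 16 markers of senescence 14 were tested, while SAG12 and SAG13 did not meet the filter on signal above background. In mature leaves 12 of the 14 were higher, 1 lower and 1 uncalled, with a median of 1.86 on the log2 scale. At 21 days 9 were higher, 4 lower and 1 uncalled, with a median of 1.19. Of all tested genes, 35.8% were higher in mature leaves and 34.8% at 21 days. The NAC factor NAP rose by 3.72 ± 0.43 at 21 days and by 3.13 ± 0.43 in mature leaves (SE, log2 scale), and the NAC factor ORE1 by 2.93 ± 0.10 and 5.77 ± 0.10. SEN1, a dark-inducible gene, rose by 4.72 ± 0.18 in mature leaves, and GLN1;4, a cytosolic glutamine synthetase gene, fell by 1.5 ± 0.15. SAG21, which was also high in 2-day seedlings, fell by 3.38 ± 0.14 at 21 days and rose by 4.55 ± 0.14 in mature leaves. WRKY53 was at least 10.3-fold lower in the same mature leaves in which these 12 markers were higher, and WRKY45 was 9.20-fold higher.

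Salicylate genes, 18 tested of 21, did not share a direction. At 21 days 9 were higher and 6 lower, with a median of 0.43 on the log2 scale. In mature leaves 6 were higher and 6 lower, with a median of 0.20. The shares called were 83.3% and 66.7%, against 75.1% and 71.3% of all tested genes. ICS1, the enzyme that makes most salicylate under stress, fell by 1.0 ± 0.15 at 21 days (SE, adjusted p = 0.00118 in limma) and had 0.24 ± 0.15 in mature leaves (adjusted p = 0.177 in limma), while the salicylate exporter EDS5 fell by 3.24 ± 0.12 at 21 days. WRKY70 and WRKY54 were higher in that comparison. The responsive gene PR5 was at least 16.0-fold higher at 21 days, and PR2, a glucanase gene, was at least 2.69-fold higher at 21 days and at least 3.20-fold higher in mature leaves, whereas PR1 stayed at background on all 8 arrays. PAD4, a lipase-like defence regulator, rose by 0.30 ± 0.08 and 1.36 ± 0.08, and its partner EDS1 had -0.16 ± 0.12 at 21 days (adjusted p = 0.276 in limma) and fell by 0.36 ± 0.12 in mature leaves. The glutaredoxin gene GRX480 fell by 4.51 ± 0.20 at 21 days and exceeded its young-leaf level at least 2.53-fold in mature leaves. SARD1, a transcription factor for ICS1, was at least 2.90-fold and at least 2.50-fold higher in these comparisons. NIMIN1 and NIMIN2, whose proteins bind the salicylate receptor NPR1, were lower in mature leaves, the former at least 6.40-fold and the latter by -3.37 ± 0.22.

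**Figure D4:**
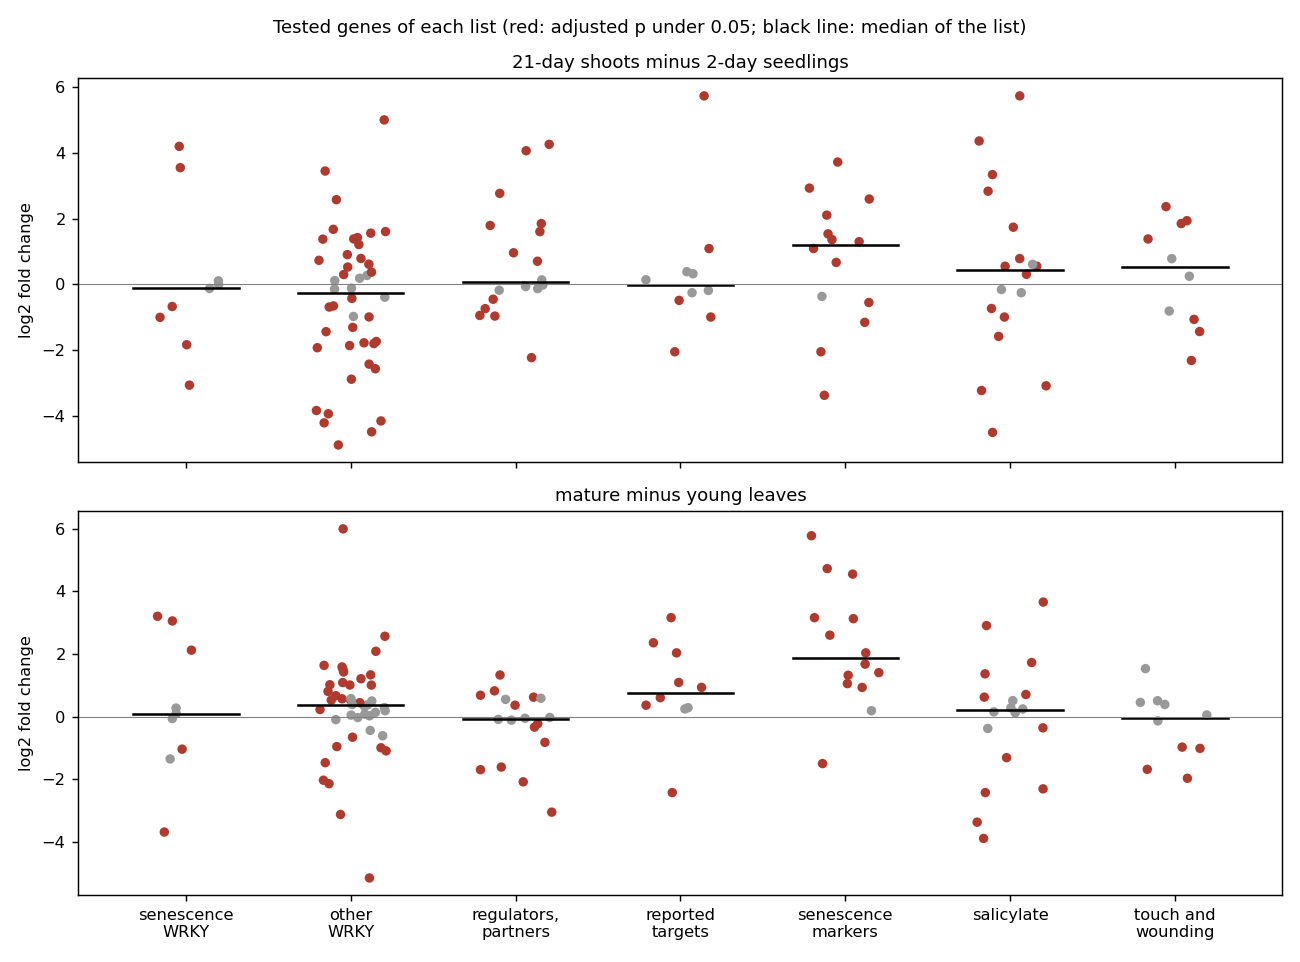
Each point is a tested gene of a list, with its fitted log2 fold change in 21-day shoots against 2-day seedlings (top) and in mature against young leaves (bottom), red where the adjusted p is under 0.05, and the black line is the median of the list. The senescence markers have medians of 1.19 and 1.86, against -0.13 and 0.10 for the 9 senescence WRKY genes, which spread to both sides in either comparison.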

How the data were processed

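Arrays of Agilent design 021169 (grid build TAIR10) were quantified in Feature Extraction 10.10.1.1, protocol GE1_1010_Sep10, per the file headers. Scanner files as deposited hold intensity, background-subtracted within an array and not scaled between arrays. The deposited value table holds the same intensity times 1 factor per array, with empty cells mostly where spots were not well above background, and served as an alternative. Of 43603 probes, 34374 matched a locus in the gene table by transcript accession, covering 25414 loci. Spots marked as outliers, 5 to 13 per array, were left out, as were 34 probes missing on an array.

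The log2 processed signal minus the array's 75th percentile was fitted with limma 3.58.1 in R 4.3.3, with all 8 arrays and a mean per group, 4 residual and 1.90 prior degrees of freedom, and Benjamini-Hochberg adjustment over 20609 genes. The script was tested on simulated data. The 2 arrays per group limit the precision.

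Members and lists were chosen with earlier results of these data known. The text names all members, set genes, the 2 largest called rises and falls of each list and comparison, and the 2 nearest genes of each member. MEKK1, MKK4, MKK5, MPK6 and PHO1 are named as background. Sequences are not used here.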

Additional observations from a re-analysis of the deposited data

How the results depend on the processing

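WRKY6, WRKY54, WRKY70 and WRKY75 at 21 days against 2 days, and WRKY22, WRKY45, WRKY53 and WRKY57 in mature against young leaves, kept their direction and their call in each alternative in which they were tested, the other probe included where a locus has another tested one. WRKY53, WRKY54 and WRKY75 were not tested where every array had to be well above background, and neither were WRKY75 at 21 days and WRKY53 in leaves with the value table. Leaving the other probes aside, the log2 values of the first-named genes ranged from -2.06 to -1.58, 1.33 to 4.18, 3.73 to 4.54 and -3.29 to -0.99, and those of the leaf comparison from -1.90 to -0.42, 2.34 to 3.46, -4.54 to -0.57 and 1.86 to 3.31, respectively. The smallest change was that with normexp for each of them except WRKY45, for which it was that with spike-in scaling. The members called lower at 21 days, 4 in the report, numbered 2 with quantile normalization, 1 where every array had to be well above background, 2 with the value table, and 2 to 4 when an array was left out. The 2 members called higher there became 1 under that filter, where 5 members were tested. In mature leaves normexp gave 5 members higher instead of 3, and the 2 lower became 6 with spike-in scaling, 1 under that filter and 1 with the value table. With no filter on dim probes all 10 members were tested, with 3 higher at 21 days and 3 lower in mature leaves. The call added in each was that of WRKY55, well above background on only 1 of 2 arrays of the brighter group. Of the genes at large, 7179 rose and 8298 fell by day 21, or 3100 and 4355 with a fold of at least 2 as well. In mature leaves 7376 were higher and 7314 lower, or 2812 and 3822 with that fold, and 1968 and 14107 with spike-in scaling. Higher calls made up 63.7% with normexp, 63.5% with median scaling and 12.2% with spike-in scaling in mature leaves, and 34.7% with spike-in scaling at 21 days. The median of all genes in mature leaves, 0.04, moved to 0.22, 0.30 and -0.82 under these 3, and that at 21 days from -0.07 to -0.28 with spike-in scaling.

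Some differences turned direction. At 21 days WRKY22 had 0.091 with normexp, 0.091 with quantile and 0.044 with median scaling, WRKY45 had -0.11 with spike-in scaling, WRKY57 had 0.020 and WRKY30 0.13 with normexp. When an array was left out, WRKY22 ranged from -0.097 to 0.070, WRKY45 from -0.078 to 0.28 and WRKY57 from -0.26 to 0.0011. WRKY53 had 0.02 with its other probe, an alternative chosen after seeing the data. In mature leaves WRKY6 had -0.59 with spike-in scaling, WRKY30 had -0.61 with quantile and -0.76 with spike-in scaling, and WRKY70 had 0.20 with median scaling. When an array was left out, WRKY30 ranged from -0.29 to 0.48 and WRKY70 from -0.25 to 0.12. With spike-in scaling WRKY6 and WRKY30 passed as lower in mature leaves at those values (adjusted p = 0.00461 and 0.0363 in limma), as did WRKY54 at -2.21 and WRKY70 at -0.92. WRKY30 passed as higher with normexp, at 0.70, though at background on all leaf arrays. The cause of these shifts was not tested.

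The labels state no pairs of replicates, and the main fit used none. Correlations of same-numbered arrays' deviations were 0.354, 0.306 and 0.251 among the groups of day 21, the last between young and mature leaves. They were -0.065 to -0.006 between these groups and 2-day seedlings. With a replicate block, 7329 genes were higher and 8401 lower at 21 days and 7577 and 7472 in mature leaves. Under the block WRKY53 at 21 days had an adjusted p of 0.0741 and WRKY6 in mature leaves one of 0.0419 in limma. The members called lower at 21 days were then 3 instead of 4, and those called higher in mature leaves 4 instead of 3. Slide and scan could not be fitted as a block, since each holds 2 whole groups, and the fit of only the 4 arrays of a comparison stands in for it. The normexp correction used the median spot signal, the raw signal column analysed here. Counts of W-boxes in promoters were not run. WRKY55, and WRKY30 and WRKY75 in leaves, are limited by signal at background.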
